A study of Mus musculus with 20 samples.

Results

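The entries described here are the mature mouse miRNAs whose name carries no arm, that is, no closing 5p or 3p. Of the 1481 entries in the tables, 195 are named in this way. The rule leaves out 16 of them, which leaves 179 entries; the other 1286 entries carry an arm. Of those left out, 7 are single names (miR-1291, miR-3535, miR-5121, miR-6236, miR-6238, miR-6240 and miR-6481) and 9 belong to the miR-466, miR-467 and miR-669 families. The 7 single names were selected on their high values after oxygen-glucose deprivation (OGD). The change after OGD in the remaining 179 entries is therefore given as a description. limma counts for this contrast are printed beside the share over all features, and no p-value is given for any entry. The differences between genotypes were not used by the rule and are tested.

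MicroRNAs were sequenced in primary cortical neurons prepared from mouse embryos at embryonic day 15 and cultured for 7 days. The neurons were wild type (WT) or lacked ciRS-7, a circular RNA also known as Cdr1as that is abundant in brain and carries many sites for miR-7 (KO). Cultures of each genotype then spent 12 h in normoxia or in OGD, a model of ischaemia in a dish, and each of the 4 groups held 5 biological replicates. The 4 groups were WT normoxia, WT OGD, KO normoxia and KO OGD. All of them carry the strain label C57BL/6N-Cdr1asem1Nikr, the wild-type groups included. Normoxic medium contained 25 mM glucose and 0.2 mM pyruvate and stood in 5% CO2 at 37 °C. OGD medium contained no added glucose or pyruvate and stood in 1% O2 and 5% CO2 at 37 °C. The labels do not name the animals or litters behind the replicates, so the p-values measure the spread between these libraries. The circle itself was not analysed here.

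A typical miRNA is cut from a hairpin in a longer transcript, first in the nucleus by Drosha and then in the cytoplasm by Dicer. Either arm of the hairpin can yield a mature strand, and current names mark the arm with a closing 5p or 3p. A name without an arm is used where only 1 product of the hairpin was catalogued, which includes many entries first found by sequencing at low read numbers. Bases 2 to 8 of the mature strand, the seed, do most of the pairing with target messenger RNAs.

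A RefSeq mature sequence (GRCm38.p6) was found for 153 of the 179 entries. The sequences of the entries on which the results turn are shown here, 5′ to 3′, with the seed in capitals. The first set holds abundant entries with a small change after OGD or a lower level, and let-7i-5p, the nearest relative of let-7j.
let-7j: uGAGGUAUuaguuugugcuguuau
let-7i-5p: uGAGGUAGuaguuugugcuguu
miR-1983: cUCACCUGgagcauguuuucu
miR-3968: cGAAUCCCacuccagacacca
miR-484: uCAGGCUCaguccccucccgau
miR-378d: aCUGGCCUuggagucagaaggu
miR-378c: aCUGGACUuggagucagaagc
miR-30f: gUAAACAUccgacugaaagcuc

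The second set holds entries that were higher after OGD: miR-690 and miR-1195, the most abundant of them, and others shown for a sequence found in many mouse transcripts, a near copy among the entries, a high content of G and C, or a simple repeat.
miR-690: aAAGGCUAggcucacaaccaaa
miR-1195: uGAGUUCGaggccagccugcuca
miR-3470b: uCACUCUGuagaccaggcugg
miR-3473a: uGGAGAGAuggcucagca
miR-3473b: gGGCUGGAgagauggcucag
miR-3473e: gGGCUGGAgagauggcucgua
miR-706: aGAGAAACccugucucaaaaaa
miR-2137: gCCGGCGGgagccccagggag
miR-6538: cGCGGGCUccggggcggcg
miR-5130: cUGGAGCGcgcgggcgaggcaggc
miR-5126: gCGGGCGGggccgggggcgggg
miR-8112: uCUCCGCCaccuccaccgca
miR-1187: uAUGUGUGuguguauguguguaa

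Read totals ran from 2492065 to 9117862 in WT normoxia, 5884616 to 12477032 in KO normoxia, 1160582 to 4374002 in WT OGD and 1811589 to 3119212 in KO OGD, so the OGD libraries were the shallower ones. Levels are given as CPM, the read count scaled to the size of its library. A floor of 3 reads, the limit that a count of 0 allows, was worth 0.249 to 2.55 CPM depending on depth, and it covers counting error only. All 5 neuronal marker miRNAs checked (among them miR-124-3p and miR-9-5p) were present and together reached 288190 to 386490 CPM per library. The 4 marker miRNAs of microglia and other leukocytes summed to 3.4 to 7.25 CPM in WT normoxia, 5.02 to 13.2 in WT OGD, 4.9 to 6.82 in KO normoxia and 6.87 to 15.2 in KO OGD, and their part in the changes after OGD was not tested. The 3 markers of oligodendrocytes summed to 5.86 to 12 CPM in WT normoxia, 9.54 to 14.1 in WT OGD, 7.74 to 11.8 in KO normoxia and 10.8 to 15.3 in KO OGD. The 2 endothelial markers summed to 269 to 393 CPM, and none of the markers in the tables was at 0 in all libraries.

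1 library stood apart for these entries. In replicate 5 of WT normoxia, the 32 entries with a mean of at least 8 CPM were at a median of 3.15 times the median of the other 4 replicates, and 19 of the 32 were more than 2-fold higher. Among 390 entries with an arm at the same mean level, that median ratio was 0.912, and 17 were more than 2-fold higher, with a highest ratio of 19.6. The sets were not matched for their change after OGD. Whether the high ratio is particular to names without an arm therefore cannot be read from these values. Replicate 5 was also the shallowest normoxic library, with 2492065 reads. For most of the entries more than 2-fold higher in it, the change after OGD in WT is given with and without it. For some this is a range over a group of entries, and miR-5128 and miR-6380 are only named. Without it, 20 of the 32 entries had a WT change over 1, as with it, and the median over all 178 entries in the WT table was 0.59 instead of 0.55.

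The 179 entries differed widely in level, and most were rare. 9 had a mean of at least 100 CPM over the 20 libraries, 32 of at least 8 CPM, 61 of at least 1 CPM and 118 under 1 CPM. 79 entries never exceeded 3 reads in any library, and 37 exceeded 3 reads in every library. The median of the mean level was 0.346 CPM, against 0.882 CPM over the entries with an arm. All 179 together made up 0.763% ± 0.0375 (SD, n = 5) of the CPM in WT normoxia, 0.993% ± 0.0754 in WT OGD, 0.785% ± 0.0388 in KO normoxia and 0.996% ± 0.0408 in KO OGD. Without let-7j, miR-1983, miR-3968 and miR-484, the 4 most abundant, those shares were 0.123%, 0.372%, 0.1122% and 0.282%. After all libraries were thinned to the same depth, 62.4 ± 10.5 (SD, n = 5) of the entries had a read in WT normoxia and 107 ± 12.4 after OGD, and in KO 66.6 ± 7.7 and 96.6 ± 11.4. The number of entries with an arm that had a read was also higher after OGD, at 720.4 and 872 in WT and 718 and 828 in KO.

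**Figure D1:**
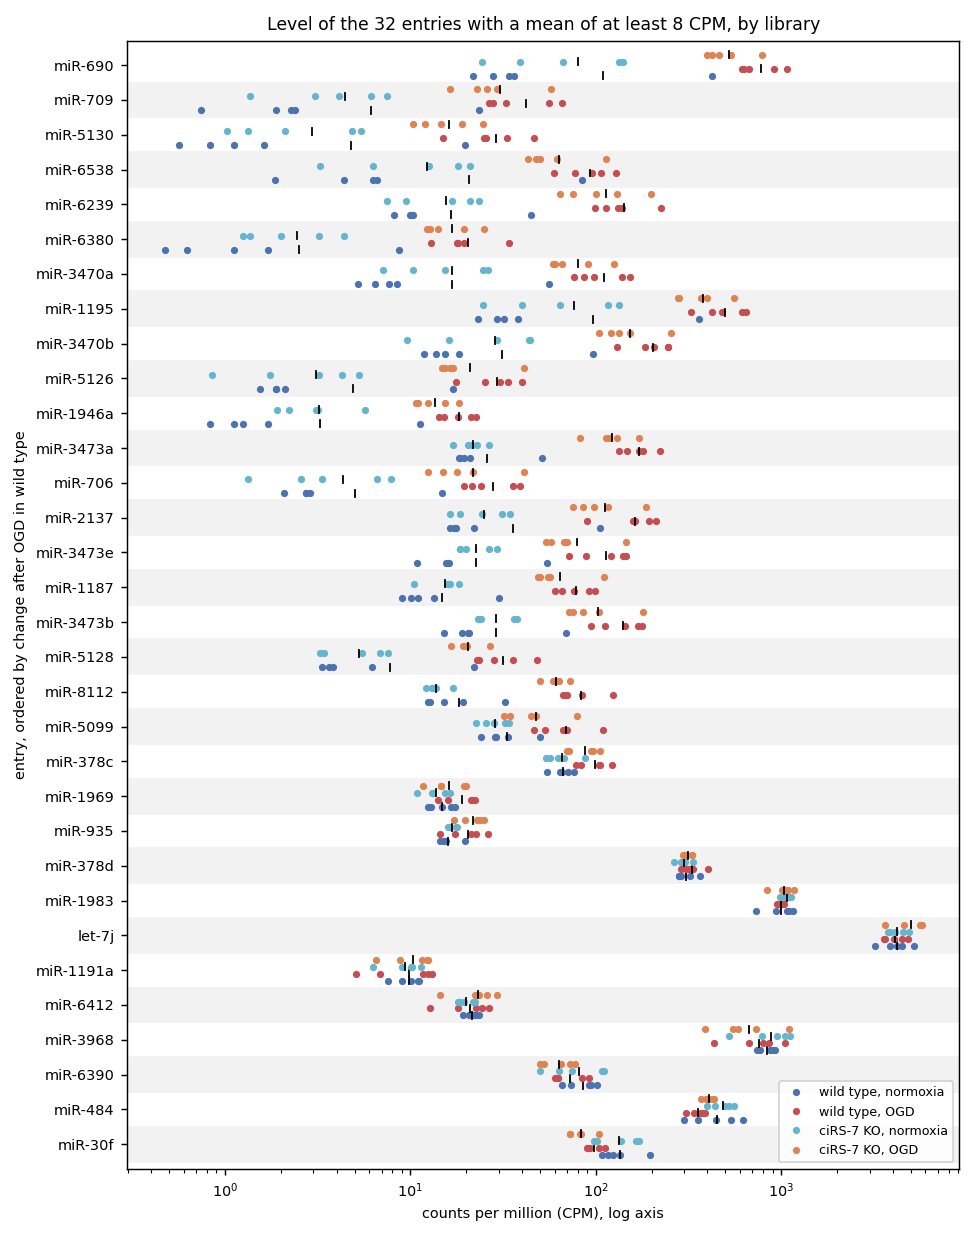
Level of the 32 entries with a mean of at least 8 CPM (rows, ordered by their change after OGD in WT) in each of the 20 libraries, on a log axis; points are libraries, coloured by group, and black ticks are group means. The lower rows, such as miR-484 and let-7j, have the 4 groups on top of each other, while in the upper rows the OGD points lie to the right of the normoxic ones, with 1 WT normoxic library (replicate 5) near the OGD points.

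The most abundant entry was let-7j, a relative of the let-7 family, whose members promote differentiation in many tissues. It stood at 5232, 4467, 4192, 3860 and 3219 CPM in replicates 1 to 5 of WT normoxia and at 4821, 3620, 4483, 4046 and 3570 CPM after OGD. In KO it stood at 4100, 4863, 4519, 3879 and 3774 CPM in normoxia and at 5659, 5716, 5584, 3651 and 4587 CPM after OGD. The 4 groups overlapped, and 3 of the 5 KO OGD libraries lay above every WT OGD library. Its sequence differed from that of let-7i-5p by 1 mismatch over the 22 bases they share, inside the seed. Let-7j stood at 8.47% ± 1.20 (SD, 20 libraries; 6.52% to 10.9%) of the level of let-7i-5p, which had a mean of 51825 CPM. How reads that match both were assigned is not given in the sources used here, so the level of let-7j is uncertain. Its RefSeq gene lies at chr3:140028249-140028370 (mm10, + strand), in no annotated gene.

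The entry miR-1983 was next, with 733 to 1157 CPM in WT normoxia (median 1080), 946 to 1031 (median 1012) after OGD, 981 to 1131 (median 1102) in KO normoxia and 838 to 1172 (median 1048) in KO OGD. All 4 groups overlapped. Its mature sequence lies at chr13:21896930-21896950 on the - strand (mm10), in a precursor at chr13:21896918-21897049 that overlaps an isoleucine tRNA annotated by RefSeq (n-TItat14). On the log2(CPM + 0.5) scale used for all changes here, it differed after OGD by 0.01 (SE 0.12) in WT and -0.07 (SE 0.09) in KO.

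miR-3968 ranged from 737 to 930 CPM in WT normoxia, 435 to 1047 after OGD, 523 to 1113 in KO normoxia and 387 to 1099 in KO OGD, with groups that overlapped throughout. It lies at chr11:115447961-115448060 (- strand, mm10), opposite a coding exon of Trim80. miR-484, known to come from a capped precursor that does not need Drosha, stood at 297.3 to 620 CPM in WT normoxia and 305 to 390 after OGD. In KO it stood at 400 to 557 CPM in normoxia and 371 to 434 after OGD. It lies at chr16:14159626-14159692 (+ strand), in an intron of Marf1 on the opposite strand. Among the 32 entries, miR-484 and miR-3968 were 2 of the 4 with the lowest change after OGD in both genotypes, at -0.30 (SE 0.16) and -0.19 (SE 0.17) in WT and -0.24 (SE 0.10) and -0.44 (SE 0.23) in KO.

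miR-30f, numbered with the miR-30 family but with a seed that no other entry with a sequence shares, had the lowest change of the 32 after OGD in both genotypes. It stood at 108, 135, 124, 116 and 195 CPM in WT normoxia and at 91.2, 93.2, 89.2, 104 and 112 CPM after OGD, where 4 of the 5 libraries were below every normoxic library. In KO it went from 170, 98, 138, 101 and 164 CPM to 82.6, 104, 72.6, 72.9 and 83.6 CPM, again with 4 of 5 libraries below all normoxic ones. The change was -0.44 (SE 0.15) in WT and -0.66 (SE 0.16) in KO. Without replicate 5 of WT normoxia the change in WT was -0.30. The miR-6390 entry, at a mean of 75.5 CPM, differed by -0.24 (SE 0.16) in WT and -0.32 (SE 0.20) in KO, with overlapping groups.

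The miR-378 relatives, a group known from energy metabolism, differed from each other in level. miR-378d stood at 281 to 364 CPM in WT normoxia, 289 to 401 after OGD, 263 to 334 in KO normoxia and 296.5 to 332 in KO OGD. miR-378c stood at 54.4 to 76.6, 77.9 to 122, 54.0 to 87.6 and 69.9 to 104.8 CPM in the same order, and its WT groups did not overlap. Their sequences differ by 2 mismatches over 21 bases, and miR-378c stood at 25.3% ± 4.87 (SD, 20 libraries) of miR-378d. As for let-7j, how reads that match more than 1 entry were assigned is not given, so these levels are uncertain. The range over miR-378b, miR-378c and miR-378d after OGD was 0.10 to 0.58 in WT and -0.08 to 0.41 in KO.

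Other entries with a similar level in all groups were miR-6412 (19.3 to 23.4 CPM in WT normoxia, 12.7 to 26.6 after OGD), miR-935 (14.4 to 19.6 and 14.4 to 26.3 CPM), miR-1969 (12.5 to 17.5 and 14.1 to 22.3 CPM) and miR-1191a (7.61 to 11.1 and 5.1 to 13.1 CPM). These groups overlapped in both genotypes. In WT 11 of the 32 entries changed by no more than 0.5 on the log2 scale after OGD, in either direction, and in KO 11 did.

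The entries with a mean of at least 8 CPM fell into some with a large change after OGD and others with a small one. In WT 20 of the 32 had a log2 change over 1, and in KO 19 had one. The same 19 exceeded 1 in both genotypes. Of the 32, 7 reach a mean of 8 CPM only through the OGD libraries (miR-709, miR-5128, miR-706, miR-5126, miR-5130, miR-6380 and miR-1946a) and so had to be higher there. Among the other 25, the change was over 1 for 13 in WT and 12 in KO. Across all 178 entries in the table of WT OGD and WT normoxia (miR-6344 is not in it), the median change was 0.55 and the range -0.62 to 3.90, beside a median of 0.32 over all 1478 features. Across the 179 entries in KO, the median was 0.38 and the range -0.66 to 2.94, beside 0.24 over all 1479 features. limma gave an adjusted p under 0.05 (Benjamini-Hochberg over all features) to 53 entries with higher and 1 (miR-30f) with lower values in WT, where 18.7% of all features were higher and 4.4% lower. In KO it gave 46 higher and 1 lower (miR-30f again), where 18.8% of all features were higher and 5.75% lower. OGD lay above normoxia without overlap for 35 entries in WT (13.5% of all features) and 41 in KO (15.3%). No entry was lower in OGD without overlap, as 2.57% of all features were in WT and 3.79% in KO. Since the entries left out include the highest in this same contrast, nothing is read from these shares. When all libraries were thinned to the depth of the shallowest, 43 entries in WT and 35 in KO had an adjusted p under 0.05, where 16.3% and 17.2% of all features had one.

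These counts and medians depend on how libraries are scaled. The median of features with a mean of at least 8 CPM moved after OGD by 0.54 in WT and 0.48 in KO. With each library centred on that median, limma called 44 entries in WT, of which 32 were higher, where it called 24.2% of all features (7.37% higher). In KO it called 47, of which 33 were higher, where it called 28.1% of all features (7.71% higher). With quantile normalization it called 40 in WT (34 higher) and 37 in KO (34 higher), where it called 22.5% of all features (9.54% higher) in WT and 22.1% (9.53% higher) in KO. Relative to the centred median, miR-1983 stood at -0.53 in WT and -0.55 in KO, miR-378d at -0.44 and -0.41, let-7j at -0.56 and -0.24 and miR-484 at -0.84 and -0.72. The entries with the highest values kept their direction under centring: miR-690 stood at 3.36 in WT and 2.46 in KO.

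miR-690 had the highest change of all 179 entries in both genotypes. It stood at 28.1, 34.1, 21.8, 36.3 and 425 CPM in WT normoxia and at 611, 675, 1069, 627 and 912 CPM in WT OGD. In KO it stood at 39.1, 133, 24.2, 140 and 66.7 CPM in normoxia and at 398, 421, 461, 534 and 789 CPM after OGD. Every OGD library was above every normoxic library of its genotype, and replicate 5 of WT normoxia was the normoxic value nearest to the OGD ones. The change was 3.90 (SE 0.54) in WT, 4.66 without replicate 5 of WT normoxia, and 2.94 (SE 0.37) in KO. The gene lies at chr16:28599935-28600043 (- strand, mm10), in an intron of Fgf12 on the same strand.

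miR-1195 followed almost the same pattern over the libraries, with r = 0.996 against miR-690 over the 20 libraries, which include both normoxia and OGD. It stood at 29.5, 32, 23.2, 38.2 and 360 CPM in WT normoxia and at 327, 480, 613, 421 and 649 CPM after OGD. The lowest WT OGD library was thus below replicate 5 of WT normoxia, and the other 4 normoxic libraries were far below all OGD libraries. In KO it went from 39.8, 134, 24.7, 117 and 64 CPM to 279, 368, 280, 397 and 558 CPM without overlap. The change was 3.27 (SE 0.50) in WT, 3.98 without replicate 5, and 2.52 (SE 0.35) in KO. Its mature sequence lies at chr17:70860558-70860580 (- strand), in an intron of the pseudogene Gm9320 on the opposite strand.

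**Figure D2:**
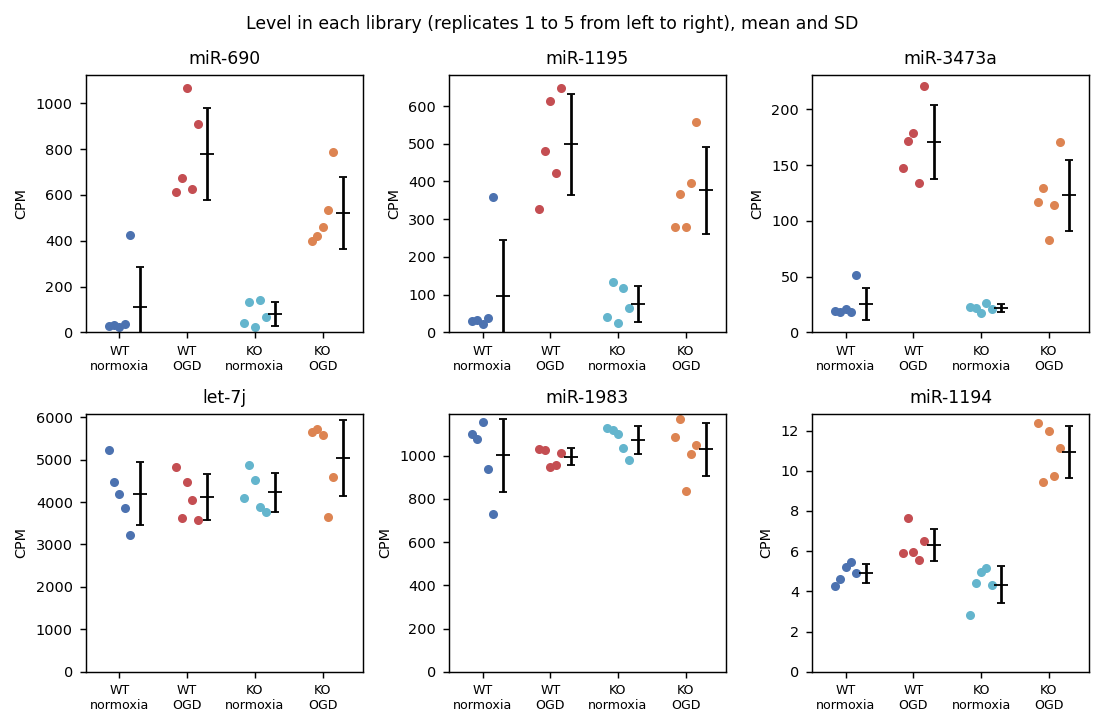
Level in CPM of 6 entries in each of the 20 libraries (points, replicates 1 to 5 from left to right within a group), with the group mean and SD beside them; SD bars that reach below 0 are cut at the axis. miR-690, miR-1195 and miR-3473a were higher in OGD than in normoxia in both genotypes, with replicate 5 of WT normoxia at 425, 360 and 51.4 CPM. let-7j and miR-1983 overlapped between all groups, and miR-1194 was highest in KO OGD, at 9.45 to 12.4 CPM.

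The miR-3470 pair and the miR-3473 group, numbered next to each other, held 5 of the 32 entries. miR-3470b stood at 13.7, 15.4, 11.9, 18.3 and 97.1 CPM in WT normoxia and at 130, 185, 245, 205 and 246 CPM after OGD. In KO it went from 9.55 to 44.1 CPM (5 libraries) to 104 to 255 CPM. miR-3470a, with a mean of 56 CPM, moved like its partner. The change of miR-3470b was 3.17 in WT, 3.71 without replicate 5 of WT normoxia, and 2.54 in KO. That of miR-3470a was 3.27 in WT, 3.86 without replicate 5, and 2.32 in KO. miR-3473a had 18.3 to 21.0 CPM in 4 WT normoxic libraries and 51.4 in replicate 5, and 134 to 221 CPM after OGD. In KO it had 17.1 to 26.6 CPM in normoxia and 82.6 to 171 CPM after OGD. Over all 7 miR-3473 entries (a to g), the change ran from 0.69 to 2.81 in WT, from 0.68 to 3.09 without replicate 5 of WT normoxia, and from 0.46 to 2.51 in KO, with miR-3473a the highest in WT.

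miR-3473b and miR-3473e share their seed and a run of 18 bases (gggcuggagagauggcuc). Their levels went together over the 20 libraries (r = 0.998): miR-3473b stood at 128.2% ± 7.25 (SD; 116% to 149%) of miR-3473e. Reads shared between the pair may have been split or counted for both, so they are not separate evidence.

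Some of these sequences occur in many transcripts. The mature sequence of miR-3470b was found exactly, on either strand, in transcripts of 1016 genes of the GENCODE M21 annotation, that of miR-3473b in 725, miR-706 in 450, miR-3473a in 281 and miR-3471 in 61. These were the 5 of 153 entries found in 10 or more genes (3.27%). None of 1081 entries with an arm was found in 10 or more, the most being 7. The 5 entries changed by 1.62 to 3.17 after OGD in WT, by 1.92 to 3.71 without replicate 5 of WT normoxia, and by 0.70 to 2.54 in KO. Of the 148 other entries with a sequence, those in the tables had a median change of 0.53 in WT and 0.35 in KO. The 5 and the 148 were not matched for level: 4 and 24 of them had a mean of at least 8 CPM. miR-1195, miR-3470b, miR-3473a, miR-3473b and miR-706 also came within 2 mismatches of an annotated small structured RNA, as did 1.57% of the entries with an arm. Nuclear tRNAs were not among the RNAs searched, so the tRNA that overlaps miR-1983 was not covered. Whether fragments of such transcripts contributed reads to these entries was not tested.

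A further 16 of the 153 sequences (10.5%) had 70% or more G and C, against 4.44% of those with an arm. 5 of them were among the 32 entries with a mean of at least 8 CPM: miR-5126 (100% G and C), miR-6538 (94.7%), miR-2137 (85.7%), miR-5130 (83.3%) and miR-8112 (70%). miR-2137 stood at 16.3 to 21.9 CPM in 4 WT normoxic libraries and 105.02 in replicate 5, and at 90.2 to 212 CPM after OGD, so that replicate 5 lay inside the OGD range. In KO it went from 16.4 to 34.5 CPM to 75.1 to 187 CPM. Its change was 2.58 in WT, 3.08 without replicate 5, and 2.12 in KO. miR-6538 stood at 1.86 to 6.61 CPM in 4 WT normoxic libraries and 84.2 in replicate 5, then 59.5 to 129 CPM after OGD, with a change of 3.40 (SE 0.61), or 4.23 without replicate 5. The change in KO was 2.49 (SE 0.39). miR-5126 changed by 3.04 (SE 0.45) in WT, 3.62 without replicate 5, and 2.64 (SE 0.37) in KO. miR-5130 stood at 0.83, 1.63, 1.11, 0.57 and 19.6 CPM in WT normoxia, and changed by 3.47 (SE 0.57) in WT, 4.22 without replicate 5, and 2.42 (SE 0.36) in KO. The 11 other entries of this composition were rarer, with means of at most 2.76 CPM.

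miR-8112 had 19.1, 12.7, 15.1, 12.5 and 32.5 CPM in WT normoxia and 84.8, 69.5, 66.3, 70.2 and 123 CPM after OGD. In KO it had 12.1 to 16.9 CPM in normoxia and 50.1 to 72.6 CPM after OGD. The changes were 2.19 (SE 0.24) and 2.11 (SE 0.14), and without replicate 5 of WT normoxia 2.42. The gene lies at chr6:71271671-71271801 (+ strand), in an annotated UTR of Krcc1 on the same strand. miR-1187, largely a repeat of G and U, changed by 2.49 (SE 0.26) in WT, 2.78 without replicate 5, and 1.97 (SE 0.21) in KO.

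miR-709 stood at 0.743 to 2.38 CPM in 4 WT normoxic libraries and 23.4 in replicate 5, and at 26.4 to 65.4 CPM after OGD. In KO it went from 1.36 to 7.48 CPM to 16.3 to 57.4 CPM, and the changes were 3.48 (SE 0.54) in WT, 4.16 without replicate 5, and 2.68 (SE 0.36) in KO. miR-6239 stood at 8.2 to 10.4 CPM in 4 WT normoxic libraries and 44.6 in replicate 5, and at 98.8 to 225 CPM after OGD. Its changes were 3.32 (SE 0.34) in WT, 3.75 without replicate 5, and 2.83 (SE 0.31) in KO. The other entries of at least 8 CPM with a change over 1 in both genotypes were miR-706, miR-5128, miR-6380, miR-1946a and those described above. miR-1946a and miR-1946b together ran from 2.61 to 2.89 in WT, 3.06 to 3.45 without replicate 5, and 1.85 to 1.97 in KO. miR-5099 exceeded 1 in WT alone, at 1.03 (SE 0.22), with 0.66 (SE 0.21) in KO, and the difference between these changes had an adjusted p of 0.99 (limma interaction term).

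**Figure D3:**
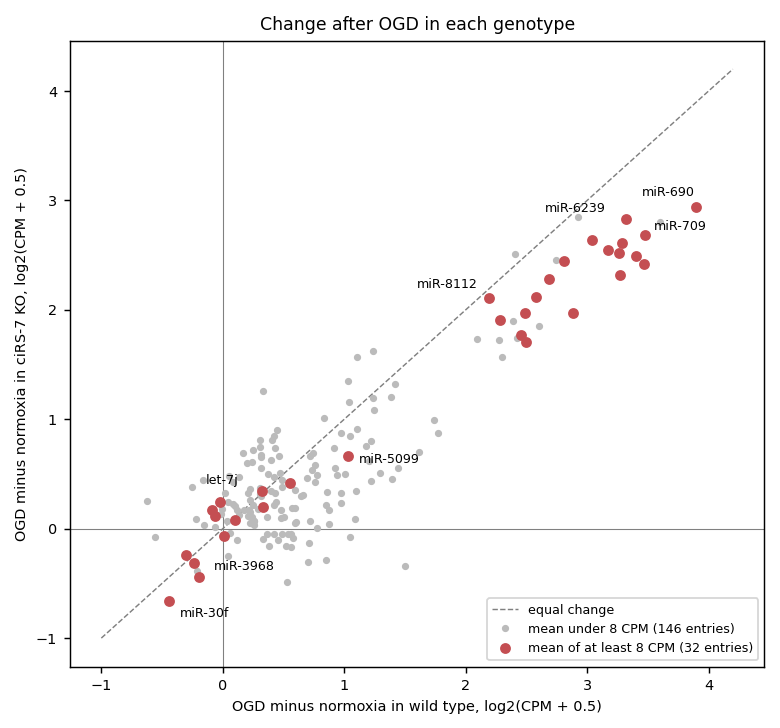
Change after OGD, as the difference of mean log2(CPM + 0.5), in WT (x axis) and KO (y axis) for the 178 entries found in both tables; red points are the 32 entries with a mean of at least 8 CPM, grey points the 146 rarer ones, and the dashed line marks equal change. The 19 red points over 1 on both axes all lie below the dashed line, with miR-8112, at 2.19 and 2.11, nearest to it and miR-690, at 3.90 and 2.94, at the upper right.

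The entries that the rule leaves out lie on the same scale as the highest of those kept. The 7 single names changed by 3.09 to 4.69 in WT and 2.54 to 4.09 in KO, with miR-1291 the lowest in WT (3.09) and miR-3535 the highest. Among the entries kept, miR-690 (3.90), miR-1904 (3.604), miR-709 (3.48) and miR-5130 (3.47) were the highest in WT, above miR-1291, miR-6236 (3.27) and miR-5121 (3.35). The rule is therefore not a clean threshold on the change.

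Below 8 CPM the entries were described by range. Of 29 entries with a mean between 1 and 8 CPM, 16 had a change over 1 in WT and 15 in KO, with medians of 1.23 and 1.08. The highest in this range, chosen after their values were seen, were miR-1904 (group means of 0.612 and 12.3 CPM in WT, 0.988 and 10.5 in KO) and miR-1949 (0.977 and 10.1 in WT, 1.70 and 14.2 in KO). The lowest in WT was miR-3474, at -0.56. miR-451a, a miRNA of red blood cells that is cut by Ago2 in place of Dicer, had group means of 1.01 and 1.83 CPM in WT and 0.987 and 0.791 CPM in KO, at or near the floor of 3 reads in the shallower libraries. miR-101c, whose overlap with miR-101a-3p holds no mismatch over 19 bases, stood at 0.218% of that miRNA's level. Of the 118 entries under 1 CPM, 19 had a change over 1 in WT and 5 in KO, and the medians were 0.43 and 0.29. Changes of such rare entries are understated by the 0.5 CPM added to each value.

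By number series, the change after OGD is given as its median and range in WT and its median in KO, beside medians of 0.32 and 0.24 over all features. The 12 entries from miR-3470 to miR-3475 had a median of 2.35 in WT (-0.56 to 3.27) and 1.64 in KO. For the 6 from miR-1186 to miR-1199 it was 0.86 in WT (-0.06 to 3.27) and 0.86 in KO, and for the 22 from miR-5046 to miR-5136 it was 0.88 (-0.15 to 3.47) and 0.40. These series thus mix entries with large and small changes. The 15 from miR-680 to miR-765 had medians of 0.74 (0.10 to 3.90) and 0.61, and the 28 from miR-1890 to miR-1999 of 0.69 (-0.26 to 3.604) and 0.71. The 11 from miR-105 to miR-500 had medians of 0.47 (-0.30 to 0.85) and 0.18. The 21 from miR-8090 to miR-8120 had medians of 0.38 (-0.16 to 2.39) and 0.32, and the 36 from miR-6335 to miR-6420, of which 35 are in the WT table, of 0.32 (-0.62 to 3.29) and 0.18. The 28 entries of every other number had medians of 0.49 (-0.44 to 3.40) and 0.34.

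The ratio of replicate 5 of WT normoxia to the median of the other 4 is plotted for the 32 entries beside the change after OGD in KO, which uses none of these libraries. The rule left out the entries without an arm that rose most after OGD, and 7 of the 32 reach 8 CPM only through OGD libraries. The values are therefore a description, and no measure of the relation is given. The ratio was lowest for miR-484, at 0.604, and highest for miR-5130, at 20.2. In KO normoxia, replicates 2 and 4 were the 2 highest libraries for 17 of the 32 entries, and for 47 of the 390 with an arm. Replicates 2 and 4 of KO normoxia were not shallow, with 8523761 and 10116439 reads. What set these libraries apart was not tested.

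The comparison of KO with WT in normoxia asks whether the loss of ciRS-7 moved these entries in resting neurons. No difference passed the test. limma called 0 of 179 entries, and 0% of all 1481 features, at an adjusted p under 0.05. limma-voom on the read counts also called 0. At an unadjusted p under 0.05 there were 3 entries (miR-6391, miR-683 and miR-6363), all of them with at most 9 reads in any library, where 3.17% of all features passed. miR-6391 was also the 1 entry higher in KO without overlap, as were 0.203% of all features. None was lower without overlap, as were 0.338%. On the deposited values, in which the extremes of each group had been pulled in, 4 entries were called, where 2.23% of all features were. The median over the 179 entries was 0.02, beside 0.03 over all features.

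Among entries with a mean of at least 2 CPM in these libraries, the smallest p-values with lower levels in KO belonged to miR-1945 (2.21 ± 0.81 CPM in KO, 2.95 ± 0.81 in WT, SD, n = 5 each) and miR-8112 (13.8 ± 1.83 and 18.4 ± 8.32 CPM). The limma adjusted p was 0.98 for both. With higher levels in KO they belonged to miR-1983 (1074 ± 64.1 and 1002 ± 171 CPM) and miR-1946a (3.22 ± 1.47 and 3.25 ± 4.53 CPM), again with an adjusted p of 0.98. For miR-1946a the means and the log2 values differ in sign, because replicate 5 of WT normoxia stood at 11.3 CPM and the others at 0.832 to 1.7 CPM. These differences moved when replicate 5 was left out: without it, miR-8112 differed by -0.09 instead of -0.32, miR-1983 by 0.01 instead of 0.12, miR-1945 by -0.24 instead of -0.36 and miR-1946a by 1.051 instead of 0.49. miR-690 differed by 0.37 (SE 0.70) between the genotypes in normoxia, and by 1.13 without replicate 5 of WT normoxia. let-7j differed by 0.02 (SE 0.12), and by -0.07 without that library. Without replicate 5, 0 entries were called.

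The comparison of KO with WT after OGD asks the same in deprived neurons. No difference passed the test over all features. limma called 0 of 179 entries and 0% of all 1481 features, and limma-voom 0. At an unadjusted p under 0.05 there were 23 entries, 21 lower and 2 higher in KO, which is 12.8% of the 179, where 7.29% of all features passed. The median over the 179 entries was -0.22, beside -0.05 over all features. Of the 19 entries with a change over 1 after OGD in both genotypes, all 19 lay lower in KO, from -0.80 to -0.26 with a median of -0.48. These 19 entries were chosen with the same OGD libraries, and the genotype and OGD contrasts share samples, so their number is not a count of independent differences. The other 13 entries of at least 8 CPM lay between -0.55 and 0.28. Of the 29 entries between 1 and 8 CPM, 24 lay lower in KO, where 631 of all 1481 features lay higher. Of these 29, 16 had a change over 1 after OGD in WT, so this count shares libraries with that change too. miR-1949, which was also higher in OGD in both genotypes, averaged 14.2 CPM in KO OGD and 10.1 in WT OGD. In bulk samples, fewer cells of a type and less RNA per cell cannot be told apart.

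Among entries with a mean of at least 2 CPM, miR-690 had the smallest p of those that were lower. It averaged 521 ± 159 CPM in KO and 778 ± 202 CPM in WT (SD, n = 5 each), and 4 of the 5 KO libraries lay below all WT libraries, while replicate 5 of KO OGD, at 789 CPM, lay inside their range. The difference was -0.59 (SE 0.15), with a limma p of 5.5e-04 and an adjusted p of 0.272. miR-5130 stood at 12, 14.6, 10.4, 19.1 and 24.5 CPM in KO and at 15, 25.7, 33.1, 25 and 46.2 CPM in WT, a difference of -0.80 (SE 0.25, limma adjusted p = 0.41). miR-3473a differed by -0.49 (SE 0.16, adjusted p = 0.41), with 4 of 5 KO libraries below all WT libraries.

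1 library decides whether these differences pass. Replicate 5 of KO OGD was the highest of its 5 libraries for 20 of the 32 entries, at a median of 1.52 times the median of the other 4, and with 1811589 reads it was the shallowest of the group. In WT OGD, replicate 5 was the highest for 14 of the 32, at 1.35 times, and replicate 3 for 11, at 1.25 times. Without it, limma called 12 entries, all lower in KO, among 22 features in all (1.49%). They were miR-690 (-0.75, limma adjusted p = 0.00167), miR-3473e, miR-6538, miR-2137, miR-3473b, miR-3470b, miR-3473a, miR-5130, miR-5099, miR-5126, miR-1195 and miR-3470a (adjusted p = 0.0362). Leaving out any other library of this comparison gave 0 calls. Leaving out a KO library that is high for these entries lowers KO by itself, so the 12 calls are a description. On the deposited values 13 entries were called, 1 of them higher, where 4.86% of all features were called.

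2 entries of at least 2 CPM were higher in KO after OGD with the smallest p-values. miR-1194 stood at 12.4, 9.45, 12, 9.72 and 11.1 CPM in KO and at 5.9, 7.63, 5.95, 5.56 and 6.53 CPM in WT, and the groups did not overlap. Of all features, 0.405% were higher in KO without overlap and 0.54% lower, among them miR-6364 and miR-8118, which had few reads. The difference was 0.75 (SE 0.24, limma adjusted p = 0.41), and 0.74 without replicate 5 of KO OGD. In normoxia miR-1194 had averaged 4.33 ± 0.908 CPM in KO and 4.9 ± 0.471 CPM in WT. let-7j averaged 5039 ± 904 CPM in KO and 4108 ± 543 CPM in WT, a difference of 0.28 (SE 0.11, limma adjusted p = 0.474). Its share of the level of let-7i-5p was 9.91% in KO OGD and 7.82% to 8.23% in the other 3 groups.

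**Figure D4:**
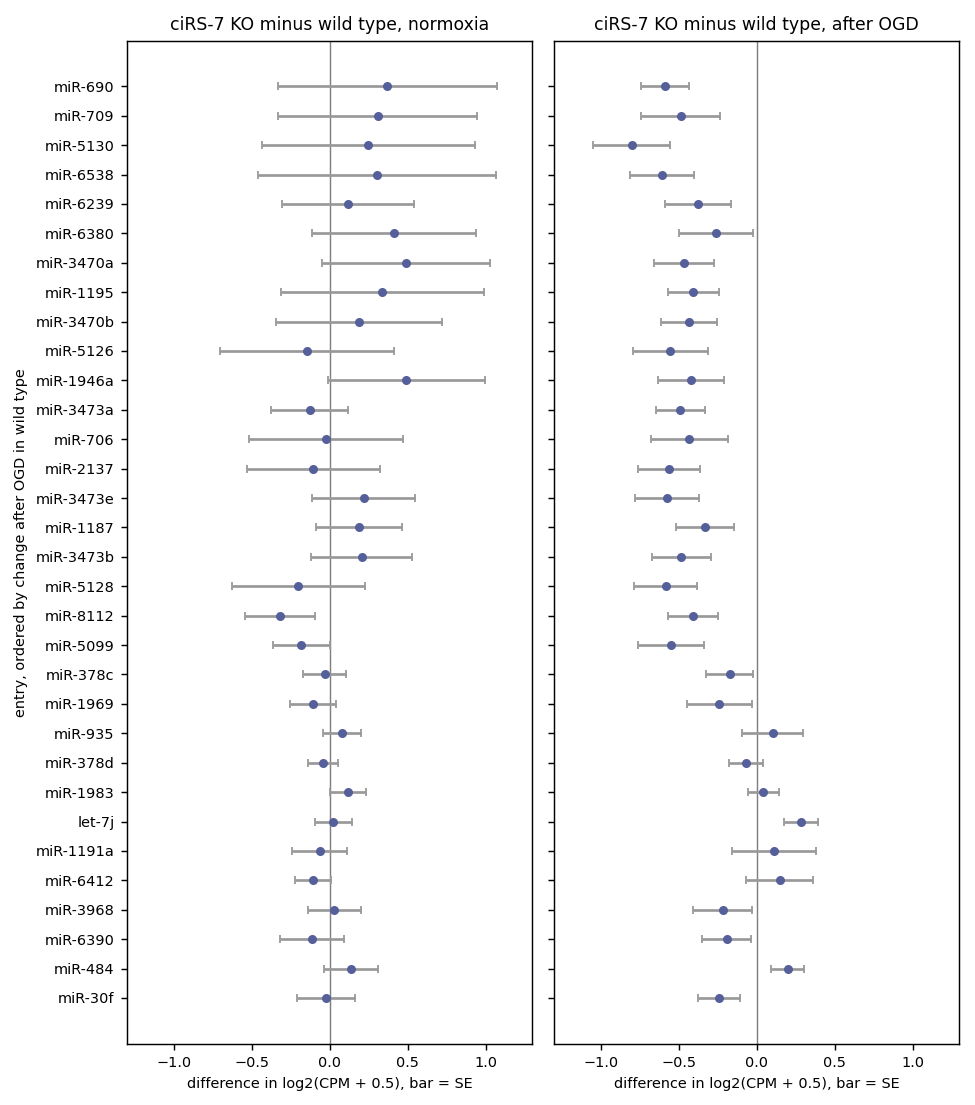
Difference between KO and WT in log2(CPM + 0.5), with its SE as a bar, in normoxia (left) and after OGD (right) for the 32 entries with a mean of at least 8 CPM, in the order of their change after OGD in WT. In normoxia the points lie on both sides of 0, from -0.32 to 0.49, with wide bars for the upper rows; after OGD the 19 upper entries from miR-690 to miR-8112 all lie below 0. No difference had an adjusted p under 0.05.

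The interaction term tests whether the change after OGD differs between the genotypes. limma called 0 of the 179 entries and 0% of all 1481 features, and limma-voom 0. At an unadjusted p under 0.05 there were 9 entries (5.03%), where 5% of all features passed. miR-1194 had the smallest p among entries with a mean of at least 2 CPM, with a change that was larger in KO by 0.93 (SE 0.27, limma adjusted p = 0.577): 0.33 (SE 0.22) in WT and 1.26 (SE 0.19) in KO. let-7j followed, at 0.26 (SE 0.18, adjusted p = 0.99). With a smaller change in KO, the smallest p-values belonged to miR-497b (-1.13, SE 0.46, adjusted p = 0.969) and miR-8114 (-0.75, SE 0.38, adjusted p = 0.99). miR-497b stood at 2.95, 2.41, 10.2, 5.56 and 4.52 CPM in WT OGD and at 3.58, 0.859, 1.6, 1.39 and 2.23 CPM in KO OGD, where 3 reads were worth 0.737 to 2.55 CPM in WT OGD and 0.975 to 1.67 CPM in KO OGD. For miR-690 the term was -0.96 (SE 0.74, adjusted p = 0.99), and -1.72 without replicate 5 of WT normoxia. Without replicate 1 of WT OGD, 1 entry was called, miR-6364 (-2.09, adjusted p = 0.00976), an entry that never exceeded 3 reads, and it was the only feature called (0.0675% of all 1481).

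The entries with an arm whose pattern over the 20 libraries was nearest are given for 6 entries. let-7j went most with miR-384-5p among entries with an arm (r = 0.882), miR-484 with miR-125a-5p (r = 0.842) and miR-378c with miR-378a-3p (r = 0.965), a close relative. miR-690 went most with miR-7087-3p (r = 0.994), miR-3470b with miR-5627-3p (r = 0.995) and miR-1187 with miR-466i-5p (r = 0.993). The 20 libraries include both normoxia and OGD, and the OGD libraries were shallower. Entries with a large change after OGD go together by that change alone, so these values are a description.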

How the data were processed

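Small RNA libraries were made from 20 cultures. Per the labels' protocols, RNA was extracted with TRIzol, treated with TURBO DNA-free, made into libraries with the NEBNext small RNA kit and size-selected by pippin. The submitters' processing notes name the build mm10. The aligner, the counter and the miRNA annotation release are not given in the sources used here.

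The authors deposited 6 tables, 1 for each pair of groups, of 1470 to 1481 features. Their names call the values log CPM, but the values exceed 19.9, the largest log2 CPM possible, so they were treated as a score. Worked out from the values, each deposited score is a power (0.106 to 0.118) of the scaled read number, with the values of each group of 5 outside the quantiles 0.16 and 0.84 pulled in by 64%. Undoing both steps gave whole reads for 100% of values (tolerance 0.1 reads). Without restoring the extremes, 76.1% to 78.3% were whole. The 6 tables then gave the same reads in 59070 comparisons with 0 differences, and the recovery was tested on simulated tables.

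CPM used the recovered library factors. limma 3.58.1 (R 4.3.3) was fitted to log2(CPM + 0.5) over all features of a comparison, without a filter on low values, with a mean-variance trend and Benjamini-Hochberg adjustment. The interaction was fitted over all 4 groups, and each other comparison over its own 2 groups. The fit was tested on simulated data. Python 3.11.15 did the rest. Single entries were named as the 12 most abundant, the 4 with the largest change after OGD in each direction (mean of at least 8 CPM), the 2 with the smallest p in each direction between genotypes and in the interaction (mean of at least 2 CPM), and the lettered families. Others were named after their values were seen. The members and the lists were chosen with earlier results of these data known. The alternatives were other pseudocounts (0.1 and 2), a filter at 1 CPM, centred libraries, quantile normalization, limma-voom on the reads, the deposited values, thinned reads, no trend, the replicate number as a block, alone and with centring, and each library left out. Sequences came from RefSeq (GRCm38.p6), matched by name.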

Additional observations from a re-analysis of the deposited data

Results flagged for a closer look

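A library was marked when, in a group of 5, its gap to the nearest other library exceeded 0.71 of the whole range. Of 96 groups (24 entries in 4 groups), 13 were marked, where chance marks about 1 in 20. Of the 13, 11 were replicate 5 of WT normoxia, always as the highest: miR-690 at 425 CPM, miR-1195 at 360 CPM, miR-3470b at 97.1 CPM, miR-3473a at 51.4 CPM, miR-2137 at 105.02 CPM, miR-709 at 23.4 CPM, miR-5130 at 19.6 CPM, miR-6538 at 84.2 CPM, miR-6239 at 44.6 CPM, miR-5126 at 17 CPM and miR-1946a at 11.3 CPM. The other marks were replicate 5 of KO OGD for miR-6538, at 113 CPM, and for miR-5126, at 41.2 CPM. The entries move together over the libraries, so the marks are not independent. What set the libraries apart was not tested.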

How the results depend on the processing

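None of the 24 named entries passed the threshold under any setting tried in the comparison of the genotypes in normoxia (504 fits) or in the interaction (720 fits). The sign of such small differences was not stable: miR-3473a stood at -0.13 between genotypes in normoxia and at 0.15 without replicate 5 of WT normoxia. Between genotypes after OGD, no named entry was called, 488 of its fits stayed without a call and 16 gained one. After OGD in WT, 468 fits kept their side of the threshold, 14 gained a call, 17 lost one and 5 changed sign with a call under either setting, and in KO 475, 25, 1 and 3 did (sign changes without a call are in the first number). The count of called entries moved beyond 1.5 times with limma-voom, to 120 in WT and 128 in KO after OGD (46.9% and 53% of all features), and with the deposited values, to 4 between genotypes in normoxia and 13 after OGD (2.23% and 4.86%). With single libraries left out, the counts ran from 43 to 54 in WT and 40 to 54 in KO after OGD (17.7% to 23.1% and 19.8% to 25.2% of all features), stayed at 0 between genotypes in normoxia, and ran from 0 to 12 after OGD (12 without replicate 5 of KO OGD) and from 0 to 1 for the interaction (1 without replicate 1 of WT OGD, where 0.0675% of all features were called). The median change after OGD depended on scale and on the value added before the log. In WT it was 1.06 with a pseudocount of 0.1, 0.222 with 2, 1.25 for means of at least 1 CPM, 0.00885 with centred libraries, 0.235 with quantile normalization and 1.95 with limma-voom. In KO it was 0.739 with a pseudocount of 0.1, 0.16 with 2, 1.59 for means of at least 1 CPM, -0.0974 with centred libraries and 1.86 with limma-voom. limma-voom adds 0.5 reads in place of 0.5 CPM, which is worth more CPM in the shallower OGD libraries. How far this raised its medians and its counts of called entries was not tested. Centring turned the sign of 4 named entries in WT, miR-1983 (-0.530), miR-378d (-0.435), miR-1945 (-0.518) and miR-1194 (-0.206), and of 5 in KO, miR-378d (-0.405), let-7j (-0.241), miR-1945 (-0.153), miR-8114 (-0.132) and miR-378c (-0.0665), and quantile normalization that of miR-378c in WT (-0.0154). The centred values follow from the shift of the centre itself; the cause of the change under quantile normalization was not tested.

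The groups share replicate numbers. The sample titles set the number beside the genotype, and the same numbers recur in normoxia and OGD. No source says what a number marks. The main fits did not take the numbers as pairs, so their SEs leave out any pairing. Same-numbered libraries deviated together (r over 0.1) in 4 of 5 pairs for OGD in WT, 4 in KO, 3 between genotypes in normoxia and 2 after OGD. As a hint from the data, 4, 3, 2 and 1 of 5 libraries went best with their own number. With the replicate block, 56 entries were called in WT and 50 in KO after OGD (26.3% and 27.2% of all features) and 0 in the other comparisons. With the replicate block and centred libraries, the medians were 0.00885 and -0.0974, miR-1983 stood at -0.530 and miR-378d at -0.435 in WT, and let-7j at -0.241 and miR-378d at -0.405 in KO.

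Depth limits the rarest entries: 79 of 179 never exceeded 3 reads. The deposited values gave no interaction, since no table holds all groups.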
